A study of Homo sapiens with 4 samples.

Results

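Serine synthesis and folate one-carbon metabolism were followed through 10 enzymes, picked by gene symbol with results of these arrays known, and without a threshold on any value: PHGDH, PSAT1 and PSPH, which make serine, SHMT2, MTHFD1L, MTHFD2, MTHFD2L and ALDH1L2, the mitochondrial folate enzymes, and SHMT1 and MTHFD1, the cytosolic ones. All 10 were measured, by 30 of the 39464 probe sets that name a single gene. LNCaP, an androgen-responsive human prostate tumor cell line, was transduced with a lentivirus carrying ERG with red fluorescent protein, or with a control lentivirus carrying the fluorescent protein alone. Total RNA was taken after an overnight culture in regular medium and hybridized to 4 Affymetrix arrays, 2 of LNCaP-ERG cells and 2 of LNCaP-vector cells. Nothing in the sources used here says that replicate arrays stand for independent transductions or cultures. The p-values therefore reflect the array-to-array spread alone, and that spread may be technical.

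Serine is made from an intermediate of glycolysis in a chain of reactions that PHGDH begins, PSAT1 continues by transferring an amino group, and PSPH ends by removing phosphate. The serine hydroxymethyltransferases SHMT1 and SHMT2 then move a carbon of serine onto tetrahydrofolate, leaving glycine. In mitochondria MTHFD2 or MTHFD2L oxidizes the folate-bound carbon and MTHFD1L releases it as formate, whereas ALDH1L2 oxidizes it to carbon dioxide with gain of NADPH. In the cytosol the trifunctional MTHFD1 takes formate up again for the synthesis of purines and thymidylate. PHGDH, PSAT1, PSPH, SHMT2 and MTHFD2 are known targets of ATF4, the transcription factor of the amino acid stress response.

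The arrays of a group differed from each other by an SD of 0.18 (LNCaP-ERG) and 0.19 (LNCaP-vector) on the log2 scale over 19583 genes. ERG itself did not check the labels. Its 4 probe sets read 2.65 to 3.47 in LNCaP-ERG arrays and 2.73 to 3.58 in LNCaP-vector arrays, the level of genes of other organs (median 3.56 over 29 such genes), and the sources used here do not say which part of the ERG transcript the virus carries. The 95th percentile of those 29 genes, a log2 intensity of 5.77, serves below as the background level. All 8 measured luminal prostate markers, KLK2, KLK3, TMPRSS2, FOLH1, STEAP2, HOXB13, KRT8 and KRT18, lay above it, with summed intensities of 27923 and 28008 in LNCaP-ERG arrays and 28477 and 29064 in LNCaP-vector arrays. The 6 fibroblast markers summed to 471 and 503 in LNCaP-ERG arrays, against 378 and 393 in LNCaP-vector arrays, nearly all of it COL1A1, with COL1A2, COL3A1, DCN, LUM and PDGFRB below background. The 5 endothelial markers summed to 103 and 113 in LNCaP-ERG arrays and 85.0 and 94.7 in LNCaP-vector arrays, with VWF alone above background, and 0 of 5 leukocyte markers were above it, with sums of 45.8 and 45.9 in LNCaP-ERG arrays and 46.3 and 51.8 in LNCaP-vector arrays. The part of these markers in the results was not tested.

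The start regions of the enzymes are shown first, sorted by whether the brightest probe set was lower in both LNCaP-ERG arrays. This sorting comes from the same arrays, and no enzyme passed the test below. It therefore does not separate changed from unchanged genes. RefSeq promoter windows of GRCh38.p14, from 250 bases before to 50 bases after a start site, were held for 7 of the 10 genes in 11 windows. They were searched on both strands for TGATGNAA (the ATF4-C/EBP composite element), TGACGTCA (the cAMP response element), CACGTG (the E-box), CCGGAA (the ETS core), GGGCGG (the GC box) and CCAAT. No window was held for PSPH, SHMT2 and ALDH1L2, which overlapped between the groups at their brightest probe sets. Not shown are the window of SHMT1, which also overlapped, and further windows of MTHFD1L and MTHFD2L. Matches are in capitals in the following windows of PHGDH, PSAT1, MTHFD2 and MTHFD2L, whose brightest probe sets were lower in both LNCaP-ERG arrays, and of MTHFD1L and MTHFD1, where the arrays of the groups overlapped.
PHGDH chr1:119711684-119711983, plus strand: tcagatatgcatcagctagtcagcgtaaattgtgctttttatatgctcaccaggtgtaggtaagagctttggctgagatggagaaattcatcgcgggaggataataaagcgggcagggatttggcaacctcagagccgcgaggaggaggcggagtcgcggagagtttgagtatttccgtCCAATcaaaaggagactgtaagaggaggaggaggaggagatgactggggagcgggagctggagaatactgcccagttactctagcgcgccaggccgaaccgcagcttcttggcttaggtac
PSAT1 chr9:78296875-78297174, plus strand: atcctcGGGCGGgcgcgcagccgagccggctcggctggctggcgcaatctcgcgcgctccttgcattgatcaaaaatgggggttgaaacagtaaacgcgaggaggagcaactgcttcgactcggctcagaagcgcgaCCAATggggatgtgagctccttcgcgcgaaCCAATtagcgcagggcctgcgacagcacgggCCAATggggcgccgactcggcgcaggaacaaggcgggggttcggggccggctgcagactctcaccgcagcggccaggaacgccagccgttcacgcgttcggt
MTHFD2 chr2:74198365-74198664, plus strand: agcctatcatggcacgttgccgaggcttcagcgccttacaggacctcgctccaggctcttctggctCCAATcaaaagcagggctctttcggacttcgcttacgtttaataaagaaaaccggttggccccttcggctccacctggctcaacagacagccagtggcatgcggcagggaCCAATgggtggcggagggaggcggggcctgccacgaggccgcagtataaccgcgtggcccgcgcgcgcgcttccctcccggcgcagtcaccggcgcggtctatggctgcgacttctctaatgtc
MTHFD2L chr4:74157868-74158167, plus strand: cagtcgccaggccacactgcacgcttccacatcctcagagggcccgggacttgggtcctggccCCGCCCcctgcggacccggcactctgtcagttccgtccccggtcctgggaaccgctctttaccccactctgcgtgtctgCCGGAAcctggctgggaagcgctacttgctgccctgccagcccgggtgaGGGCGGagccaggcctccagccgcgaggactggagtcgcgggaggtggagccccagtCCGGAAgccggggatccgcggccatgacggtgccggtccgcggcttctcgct
MTHFD1L chr6:150866197-150866496, plus strand: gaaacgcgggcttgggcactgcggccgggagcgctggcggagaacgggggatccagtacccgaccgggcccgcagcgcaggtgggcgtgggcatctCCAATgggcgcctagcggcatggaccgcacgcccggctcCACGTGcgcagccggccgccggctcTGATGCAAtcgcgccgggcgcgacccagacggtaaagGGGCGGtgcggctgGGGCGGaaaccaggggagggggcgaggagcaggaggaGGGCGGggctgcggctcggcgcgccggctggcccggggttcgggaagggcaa
MTHFD1 chr14:64388103-64388402, plus strand: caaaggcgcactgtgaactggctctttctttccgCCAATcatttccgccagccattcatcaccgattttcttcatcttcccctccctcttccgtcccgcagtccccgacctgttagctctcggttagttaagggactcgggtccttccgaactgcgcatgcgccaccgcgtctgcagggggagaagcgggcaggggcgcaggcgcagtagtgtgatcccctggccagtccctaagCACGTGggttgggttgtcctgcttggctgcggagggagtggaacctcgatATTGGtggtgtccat

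The PHGDH window held a single CCAAT, 71 bases before the start site. The PSAT1 window held 3, at 113, 83 and 52 bases before it, and the MTHFD2 window held 2, at 184 and 74 bases before it. Neither of the 2 MTHFD2L windows held CCAAT. It was also in the windows of SHMT1 and MTHFD1 and in 3 of the 4 of MTHFD1L, which makes 8 of the 11 windows. Those 3 MTHFD1L windows overlap one another and hold the same CCAAT, which is counted 3 times there. Among all 35116 windows 34.6% hold CCAAT, and the 8 of 11 is not read as a higher share. CCAAT was thus found both in enzymes that were lower without overlap and in enzymes that overlapped. The ATF4-C/EBP letters were found in MTHFD1L alone, in 3 windows that overlap one another, against 3.62% of all windows. The ETS core was in 1 of the 2 MTHFD2L windows, at 108 and 2 bases before the start site, and in 17.2% of all windows. The E-box was in the MTHFD1 window and the same 3 MTHFD1L windows (7.26% of all windows). The GC box was in 6 windows, 3 of them these of MTHFD1L (45.0% of all), and the cAMP response element in none (1.85% of all). No match overlapped one of another motif. A match is a description of letters and does not show a bound site.

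Across the enzymes the brightest probe sets of PSAT1, PHGDH, MTHFD2 and MTHFD2L lay lower in both LNCaP-ERG arrays than in both LNCaP-vector arrays, by 1.14-fold to 1.19-fold, while those of SHMT2, MTHFD1, SHMT1, MTHFD1L, ALDH1L2 and PSPH overlapped between the groups. No enzyme passed the test. RNA of whole cultures was measured, so a smaller number of cells with an enzyme's transcript and less of it per cell cannot be told apart. With limma's moderated test on 1 probe set per gene and Benjamini-Hochberg adjustment over 19583 genes, 0 of the 10 had an adjusted p under 0.05, against 0.0102% of all genes, and 2 of the 10, PSAT1 and MTHFD2L, were lower at an unadjusted p under 0.05, against 4.11% of all genes. The 4 of 10 that were lower without overlap compare with 19.1% of all genes. In a second fit over all 39464 probe sets, 0 of the 30 enzyme probe sets passed, as did 0% of all. Of these 30 probe sets, 6 were lower and 1 was higher at an unadjusted p under 0.05, where 4.41% of all were lower and 4.30% higher. In that fit 12 of the 30 were lower and 4 higher without overlap, against 20.1% lower and 18.9% higher among all probe sets. Only 16 of the 30 were above background, and of these 7 were lower and 0 higher without overlap. The matching share of all probe sets above background was not counted, so the 7 and 0 are not read as a result about the enzymes. MTHFD2L alone gave 5 of the 12, and probe sets of the same gene are not independent, so these counts are descriptive. All log2 fold changes below are LNCaP-ERG minus LNCaP-vector, and for the enzymes they come from the fit over all probe sets.

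**Figure D1:**
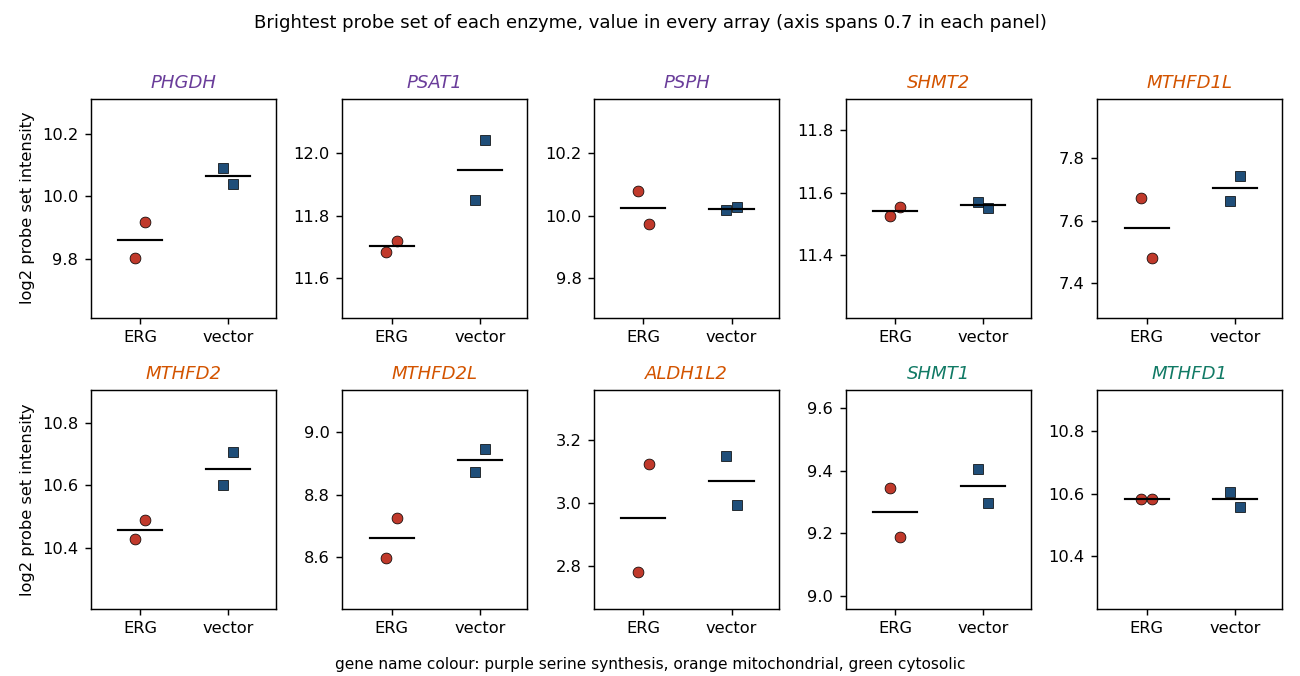
Log2 intensity (y axis) of the brightest probe set of each of the 10 enzymes in every array, LNCaP-ERG (red circles) left and LNCaP-vector (blue squares) right, with group means as lines; each y axis spans 0.7. The groups lie apart for PHGDH, PSAT1, MTHFD2 and MTHFD2L and overlap for the other 6.

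PSAT1, the phosphoserine aminotransferase, lay lower in LNCaP-ERG at both of its probe sets, and the second had the most negative log2 fold change of the 30. The first (223062_PM_s_at) read log2 intensities of 11.68 and 11.72 in LNCaP-ERG arrays and 11.85 and 12.04 in LNCaP-vector arrays. The second (220892_PM_s_at) read 7.66 and 7.80 in LNCaP-ERG arrays and 8.21 and 8.53 in LNCaP-vector arrays. In both, the second LNCaP-vector array was the highest of the 4 and the groups did not overlap. The log2 fold changes were -0.24 (standard error 0.10, 95% interval -0.50 to 0.01, adjusted p = 0.59 from limma) and -0.64 (standard error 0.13, 95% interval -0.97 to -0.30, adjusted p = 0.45), 1.18-fold and 1.55-fold lower. With the arrays centred on housekeeping genes the second probe set passed (log2 fold change -0.73, limma's adjusted p = 0.016), as did 173 of all 39464, and it was the only enzyme probe set that passed in any setting tried. Without the second LNCaP-vector array the brighter probe set had -0.15.

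PHGDH, the first enzyme of the chain, is read by 1 probe set (201397_PM_at). It had 9.80 and 9.92 in LNCaP-ERG arrays and 10.09 and 10.04 in LNCaP-vector arrays, without overlap. The log2 fold change was -0.20 and its adjusted p 0.61 from limma, with a standard error of 0.09. It had a 95% interval of -0.43 to 0.03.

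PSPH, the phosphatase that yields serine, differed between its probe sets. The brighter (205048_PM_s_at) had 10.08 and 9.97 in LNCaP-ERG arrays against 10.02 and 10.03 in LNCaP-vector arrays, a log2 fold change of 0.0033 (95% interval -0.22 to 0.23). The dimmer (205194_PM_at) had 8.80 and 8.91 in LNCaP-ERG arrays against 9.17 and 9.15 in LNCaP-vector arrays, with both LNCaP-ERG arrays below both others. Its log2 fold change was -0.30 (standard error 0.09, 95% interval -0.53 to -0.08, adjusted p = 0.51 from limma). The brighter PSPH probe set and both of PSAT1 are of the kind marked _s_, whose probes match several transcripts. The RefSeq gene table also lists pseudogenes of PSPH, PSAT1 and MTHFD2, and whether these probe sets read them was not tested.

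Among the mitochondrial enzymes the dehydrogenase-cyclohydrolases MTHFD2 and MTHFD2L, which carry out the same step, were lower without overlap. MTHFD2 (201761_PM_at) read 10.43 and 10.49 in LNCaP-ERG arrays and 10.60 and 10.71 in LNCaP-vector arrays. Its log2 fold change was -0.19 (standard error 0.09, 95% interval -0.42 to 0.03, adjusted p = 0.62 from limma). The other MTHFD2 probe set (234976_PM_x_at), of a kind whose probes may match other transcripts, lay below background at 4.42 and 4.45 in LNCaP-ERG arrays and 4.65 and 5.08 in LNCaP-vector arrays. Both probe sets had the second LNCaP-vector array highest.

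MTHFD2L, the isoenzyme of MTHFD2, has 7 probe sets, 6 of them with a log2 fold change below 0 and 5 lower without overlap between the groups, against 20.1% of all probe sets. The brightest (238762_PM_at) had 8.60 and 8.72 in LNCaP-ERG arrays and 8.87 and 8.95 in LNCaP-vector arrays. Its log2 fold change was -0.25 (standard error 0.09, 95% interval -0.48 to -0.01, adjusted p = 0.56 from limma). The next (239562_PM_at) had 5.54 and 5.84 in LNCaP-ERG arrays, around the background level, and 6.18 and 6.30 in LNCaP-vector arrays, and was 1.46-fold lower (log2 fold change -0.55, standard error 0.13, adjusted p = 0.48). The other 5 lay below background in every array, and their log2 fold changes ran from -0.26 to 0.06.

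SHMT2, the mitochondrial serine hydroxymethyltransferase, differed little between the groups. Its brightest probe set (214096_PM_s_at) read 11.53 and 11.56 in LNCaP-ERG arrays and 11.57 and 11.55 in LNCaP-vector arrays. The log2 fold changes of its 3 probe sets, all bright and all overlapping, were -0.02, -0.04 and 0.00077, and their 95% intervals together ran from -0.25 to 0.21. These intervals do not show that SHMT2 was unaffected, and they leave room for a change of the size measured in PHGDH or MTHFD2.

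MTHFD1L, the mitochondrial formate-releasing enzyme, read 7.67 and 7.48 in LNCaP-ERG arrays and 7.66 and 7.74 in LNCaP-vector arrays at its brightest probe set (225520_PM_at). The groups overlapped through the first LNCaP-ERG array, and the log2 fold change was -0.13 (standard error 0.10, 95% interval -0.39 to 0.13). All 4 of its probe sets had a log2 fold change below 0, from -0.13 to -0.02, and 2 of them lay at 2.62 to 2.84 in the 4 arrays, below background. ALDH1L2, the NADPH-forming enzyme, was at background: its 3 probe sets read 2.71 to 3.13 in LNCaP-ERG arrays and 2.63 to 3.15 in LNCaP-vector arrays, and no direction is drawn from them.

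The cytosolic enzymes overlapped between the groups at every probe set above background. SHMT1 (224954_PM_at) read 9.35 and 9.19 in LNCaP-ERG arrays and 9.40 and 9.30 in LNCaP-vector arrays, and its log2 fold change of -0.08 had a 95% interval of -0.34 to 0.17. A second bright probe set of SHMT1 (209980_PM_s_at) had -0.09 (95% interval -0.39 to 0.22). MTHFD1 (202309_PM_at) read 10.58 and 10.58 in LNCaP-ERG arrays and 10.61 and 10.56 in LNCaP-vector arrays, a log2 fold change of 0.0011 (95% interval -0.21 to 0.21). The second MTHFD1 probe set (239846_PM_at), dim at 3.15 and 3.17 in LNCaP-ERG arrays and 2.88 and 2.85 in LNCaP-vector arrays, was the 1 member probe set higher at an unadjusted p under 0.05 (log2 fold change 0.29, adjusted p = 0.51 from limma).

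**Figure D2:**
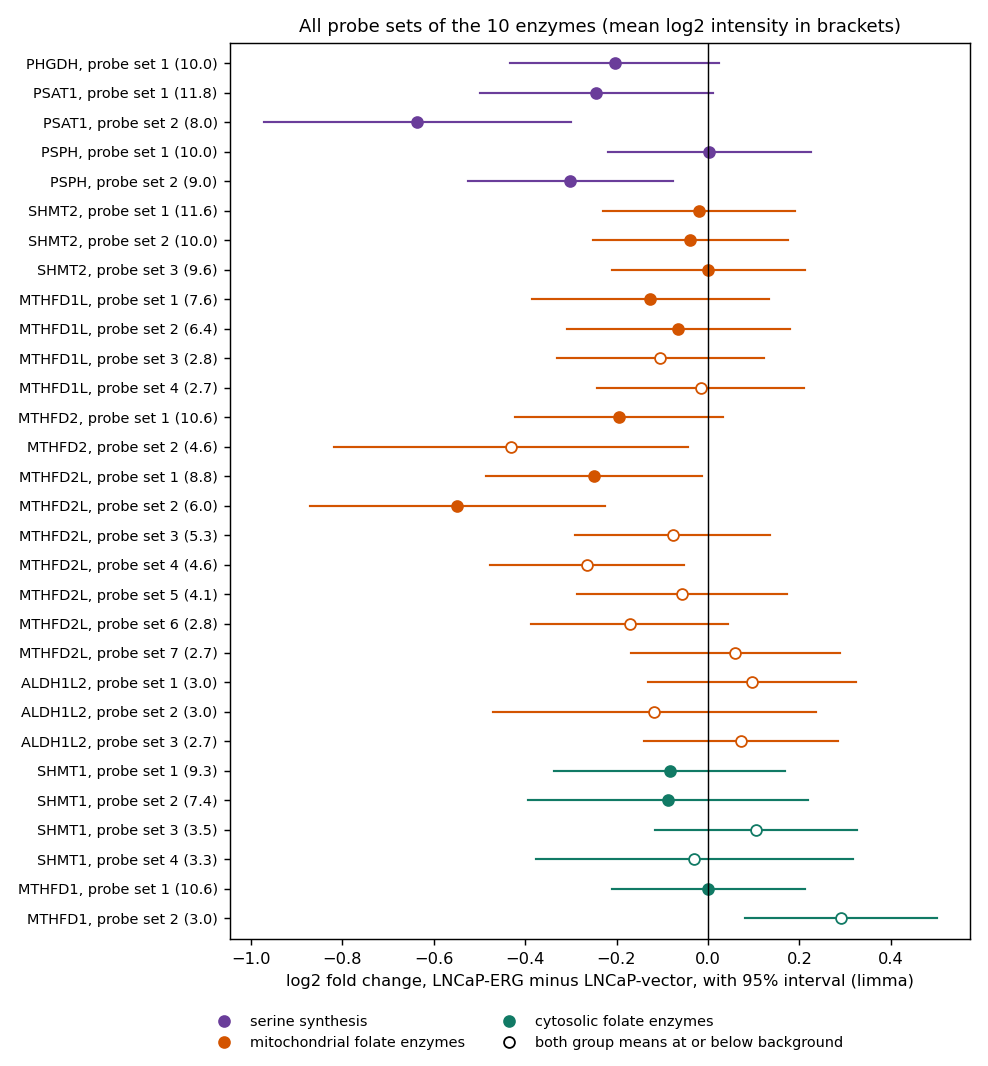
Log2 fold change with its 95% interval from limma (x axis) of all 30 probe sets (y axis), coloured by role, with the mean log2 intensity over the 4 arrays in brackets; open circles have both group means at or below background. The second PSAT1 probe set lies farthest left at -0.64, and those of SHMT2 lie between -0.04 and 0.00077.

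By compartment, the 5 mitochondrial enzymes had a median log2 fold change of -0.13 and the cytosolic SHMT1 and MTHFD1 a median of -0.04, beside -0.20 for the 3 serine synthesis enzymes and 0.0078 over all 19583 genes, with 1 probe set per gene. The difference between compartments was not tested, since the enzymes were chosen with results of these arrays known. Within the mitochondrial enzymes the values ran from -0.25 in MTHFD2L to -0.02 in SHMT2, a wider range than the distance between the compartments' medians. Set against each other, the hydroxymethyltransferases SHMT2 and SHMT1 had -0.02 and -0.08, and the mitochondrial MTHFD2, MTHFD2L and MTHFD1L had -0.19, -0.25 and -0.13 where MTHFD1, which unites these activities in the cytosol, had 0.0011. The median of 5 includes ALDH1L2, which was at background and is given no direction. Without dim probe sets the other 4 mitochondrial enzymes had a median of -0.16.

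The neighbouring pathway genes were counted in the same way, 1 probe set per gene, and none passed. Of 8 genes of folate uptake and polyglutamation 3 were below 0 and 5 above. GGH, which trims polyglutamate from folates, had 9.28 and 9.25 in LNCaP-ERG arrays and 9.02 and 9.04 in LNCaP-vector arrays (difference 0.23 with a standard error of 0.08, limma's adjusted p = 0.45), and FOLR2, a folate receptor, had 0.29 below background. FOLH1, the folate hydrolase known as prostate-specific membrane antigen, had a mean of 12.65 in LNCaP-ERG arrays and 12.57 in LNCaP-vector arrays. Of 5 other folate enzymes 2 were below 0 and 3 above, among them FTCD (0.29, adjusted p = 0.43), which was below background. TYMS was below 0, with 10.57 and 10.52 in LNCaP-ERG arrays and 10.73 and 10.73 in LNCaP-vector arrays (-0.18, limma's adjusted p = 0.53). The 3 measured genes of the glycine cleavage system had log2 fold changes of -0.01 to 0.31.

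Downstream of serine and folate, 9 of 12 genes of the methionine cycle and transsulfuration were below 0, with a median of -0.07. CTH, which makes cysteine from cystathionine, had 6.36 and 6.31 in LNCaP-ERG arrays against 6.58 and 6.70 in LNCaP-vector arrays (difference -0.30 with a standard error of 0.08, limma's adjusted p = 0.40). GNMT, the glycine methyltransferase, had 7.52 and 7.71 in LNCaP-ERG arrays against 7.91 and 7.94 in LNCaP-vector arrays (-0.30, adjusted p = 0.43). Both lay lower in the 2 LNCaP-ERG arrays than in the 2 LNCaP-vector arrays, and BHMT (0.41, adjusted p = 0.32), which remethylates homocysteine, lay higher but below background. The formate-using purine enzymes GART and ATIC had -0.04 and -0.03. Of 7 genes of serine transport and use 5 were below 0, the lowest being SLC1A5, a transporter of glutamine and other neutral amino acids (-0.34, standard error 0.10, adjusted p = 0.42).

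Among 14 genes of the ATF4 pathway 13 were below 0, where 9239 of all 19583 genes were, and 9 were lower without overlap, against 19.1% of all genes. Their median was -0.25. ASNS, the asparagine synthetase, had -0.25 (standard error 0.08, adjusted p = 0.44 from limma), and TRIB3, CHAC1 and ATF3 had -0.49, -0.57 and -0.41 with adjusted p-values of 0.25, 0.32 and 0.32. ATF4 itself read 11.46 and 11.32 in LNCaP-ERG arrays and 11.43 and 11.51 in LNCaP-vector arrays, which overlap (-0.08, adjusted p = 0.82).

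**Figure D3:**
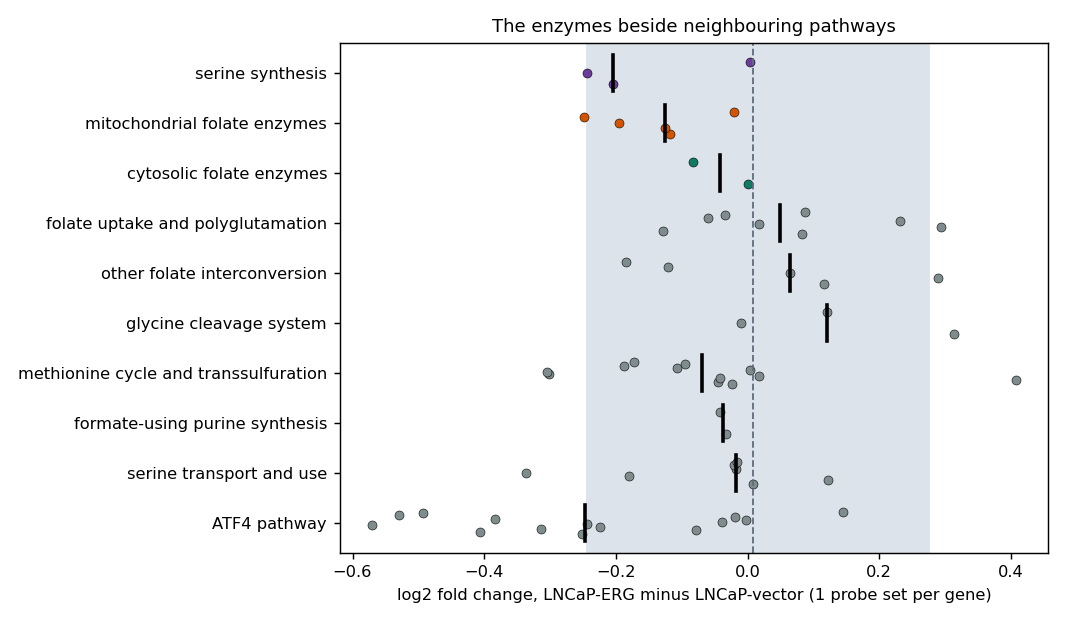
Log2 fold change (x axis) of each measured gene, 1 probe set per gene, in the enzyme groups and neighbouring lists (y axis), with black bars for list medians, a dashed line for the median of all genes and a shaded band from their 5th (-0.24) to 95th percentile (0.28). PSAT1 and MTHFD2L lie at the lower edge of the band. TRIB3, CHAC1 and ATF3 lie below it, as do further genes of the ATF4 pathway and SLC1A5, GNMT and CTH of other lists. BHMT is among the genes above it.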

How the data were processed

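RNA of LNCaP-ERG and LNCaP-vector cells was measured on 4 Affymetrix arrays. The deposited values are probe set intensities, which the authors obtained with dChip and RMAexpress (versions not given in the sources used here). The methods do not state their scale. Per array the median was 14.0 to 14.4 and the maximum 14962 to 15344, as a linear scale would give, so log2 was taken. Of 51965 probe sets, 2 had a missing value. The platform annotation gave 1 gene for 39466, several for 838 and none for 11661, and only the first kind was used. The entrez identifiers of all 10 enzymes matched RefSeq under the same symbol.

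LNCaP-ERG was set against LNCaP-vector by limma 3.58.1 (lmFit, eBayes; R 4.3.3), with 2 residual degrees of freedom, once over 39464 probe sets and once over 19583 genes, each represented by the brightest of its probe sets. Benjamini-Hochberg adjustment covered every feature of a fit, with a threshold of 0.05. The fit was tested on simulated data with changes larger than any measured in the enzymes. That test therefore does not show how the fit handles changes of their size. Enzymes and lists were chosen with earlier results of these data known. Named were every enzyme and probe set, and of each further list up to 3 genes with the smallest unadjusted p under 0.05, with ERG, ASNS and ATF4. FOLH1, TYMS, GART, ATIC and COL1A1 were named after their values were seen. Some genes of the further lists were not analysed here. Alternatives comprised a trended, robust variance, a filter on dim probe sets, a further quantile normalization, housekeeping centring, a replicate block, the methods' t-test, averaging all probe sets of a gene, plain probe sets only (IDs without the _s_, _x_ or _a_ mark), and omitting each array in turn. The number of arrays limits the precision. Plots were drawn with matplotlib 3.10.9 in Python 3.11.15.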

Additional observations from a re-analysis of the deposited data

How the results depend on the processing

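None of the 10 enzymes passed in any of the 12 alternatives, with lowest adjusted p-values among them of 0.19 to 0.82. The 2 of 10 lower at an unadjusted p under 0.05 became 4 with trended and robust moderation and with averaged probe sets. Without dim probe sets they became 4 of the 9 measured, with the replicate block 1, and with the methods' t-test (no gene passed) 0. The share of all genes lower at that threshold was not counted in these settings, so the counts are not read as a result about the enzymes. Over all genes 2 passed, against 89 with trended and robust moderation, 54 without dim probe sets, 111 with housekeeping centring, 14 with averaged probe sets, 3 with quantile normalization again and 3 with plain probe sets. With any single array left out none passed. The remaining array of that group is then assumed to vary like the other group. The dimmer PSAT1 probe set passed with housekeeping centring, making 1 member probe set in place of 0. That centring lowered every log2 fold change by 0.098, since the housekeeping median was 11.15 in the first LNCaP-ERG array and 10.92 to 10.94 in the other 3. It gave medians of -0.30 (serine synthesis), -0.22 (mitochondrial) and -0.14 (cytosolic). With the average over all probe sets of a gene PSAT1 had -0.44, MTHFD2 -0.31 and MTHFD1 0.15. The mitochondrial median was then -0.078 and the cytosolic 0.061. The averages of MTHFD2 and MTHFD1 each take in a probe set below background, with log2 fold changes of -0.43 and 0.29. With plain probe sets, where PSAT1 has none, the serine median was -0.25. Omitting single arrays gave -0.26 to -0.15 (serine synthesis), -0.22 to -0.14 (mitochondrial) and -0.080 to -0.0017 (cytosolic). SHMT1 then ran from -0.16 to -0.0052 and MTHFD1L from -0.22 to -0.030. PHGDH, PSAT1, MTHFD2, MTHFD2L, MTHFD1L and SHMT1 stayed below 0. Moderation, block, t-test and dim filter left fold changes unchanged, and centring lowered all. Omitting arrays cannot reverse the first 4, which did not overlap. PSPH turned to -0.095 with housekeeping centring, -0.15 with the mean of probe sets and -0.30 with plain ones, and lay between -0.049 and 0.056 without single arrays. MTHFD1 turned to -0.097 with housekeeping centring and ran from -0.023 to 0.025 without single arrays. ALDH1L2 turned to 0.017 with the mean of probe sets and ran from -0.29 to 0.055 without single arrays, and SHMT2 turned to 0.00077 with plain probe sets. Both groups are numbered 1 and 2, but same-numbered arrays did not deviate together (correlation 0.077 over genes). With the replicate block no gene passed (lowest enzyme adjusted p = 0.50). The cause of these shifts was not tested.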

Other observations

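One further probe set names MTHFD1L together with uncharacterized genes and was left out of the counts. It read 3.26 and 3.25 in LNCaP-ERG arrays and 3.30 and 3.58 in LNCaP-vector arrays, below background in all 4.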
